A study of Homo sapiens with 6 samples.

Results

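Chemokines are small secreted or membrane-tethered proteins that guide the movement of leukocytes and of some epithelial and tumour cells by binding G protein-coupled receptors. They are grouped by the spacing of their first conserved cysteines into CXC, CC and CX3C ligands. A subset of CXC ligands that carry the glutamate-leucine-arginine motif before those cysteines binds CXCR2 and attracts neutrophils. Genes of that subset lie side by side on human chromosome 4 and are textbook targets of NF-kB, a transcription factor switched on by interleukin 1 and tumour necrosis factor. In liver, hepatocytes, bile duct cells and resident macrophages can make chemokines during injury and in hepatocellular carcinoma.

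The genes described are 10 chemokine ligands out of 60623 genes in the deposited table, matched by symbol: CXCL1, CXCL2, CXCL3, CXCL5, CXCL8, CXCL16, CX3CL1, CCL2, CCL20 and CCL28. RNA-seq had been run on 6 libraries of cells with the label Huh7, a line grown from a human liver carcinoma. SRSF10, an RNA-binding protein that regulates exon choice, was knocked down in 3 of them, with a hairpin RNA as the series title has it. The other 3 are controls with the genotype label WT and no treatment label, and whether they carried a control hairpin is not stated. No label says that the replicates are separate cultures, so p-values measure the spread between these libraries, which may be technical. The comparison asks how expression differs when SRSF10 is lowered.

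Values are FPKM, fragments per length of gene and per depth of library, as the authors deposited them. Estimated depth was 12740000 to 14015000 fragments in knockdown libraries and 12720000 to 14350000 in control libraries. SRSF10 was at 10.6, 10.8 and 10.6 FPKM in knockdown libraries, against 18.6, 19.5 and 19.8 FPKM in control libraries. The knockdown libraries lay far below the controls, at a log2 fold change of -0.80 with an SE of 0.038 (limma adjusted p = 0.000166). Of 11 hepatocyte markers, 7 were under 1 FPKM in all 6 libraries. AFP was at 0.872 to 0.892 FPKM in the knockdown and 0.669 to 0.958 FPKM in the controls, and APOA2, TTR and GPC3 were listed at 0. ALB was at 0.624, 0.814 and 0.434 FPKM in the knockdown, against 0.162, 0.115 and 0.172 FPKM in the controls, and SERPINA1 likewise lay under 1 FPKM with every knockdown value above every control value. The keratins KRT8 and KRT18 and the transcription factor HNF4A were present. The liver secretory transcripts that usually define hepatoma cells were thus nearly absent from cells labelled Huh7. In bulk libraries, fewer cells of a type and less RNA per cell cannot be told apart.

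The 5 CXC ligands with that motif share a short run of bases just before their start sites, which is shown first because these genes did not all pass the test between groups. The stretches are the 120 bases upstream of the RefSeq start on GRCh38.p14, written 5′ to 3′ on the gene's strand. Capitals mark GGAATTTCC, a core of the NF-kB element known in these promoters. In CCL20 capitals mark a looser form, GGGA and CC with any 4 bases between them, on either strand.
CXCL1 (chr4:73869273-73869392, plus strand): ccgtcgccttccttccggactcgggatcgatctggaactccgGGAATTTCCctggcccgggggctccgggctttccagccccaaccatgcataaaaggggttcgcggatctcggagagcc
CXCL2 (chr4:74099196-74099315, minus strand): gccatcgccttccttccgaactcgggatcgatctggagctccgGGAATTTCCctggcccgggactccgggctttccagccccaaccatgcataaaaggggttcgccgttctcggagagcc
CXCL3 (chr4:74038690-74038809, minus strand): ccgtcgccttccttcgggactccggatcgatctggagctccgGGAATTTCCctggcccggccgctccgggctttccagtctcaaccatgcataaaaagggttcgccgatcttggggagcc
CXCL5 (chr4:73998678-73998797, minus strand): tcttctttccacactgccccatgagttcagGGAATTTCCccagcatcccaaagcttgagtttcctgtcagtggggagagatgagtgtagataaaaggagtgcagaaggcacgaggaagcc
CXCL8 (chr4:73740449-73740568, plus strand): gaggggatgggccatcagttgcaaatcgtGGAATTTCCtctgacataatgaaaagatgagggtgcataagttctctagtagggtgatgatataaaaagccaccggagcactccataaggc
CCL20 (chr2:227813722-227813841, plus strand): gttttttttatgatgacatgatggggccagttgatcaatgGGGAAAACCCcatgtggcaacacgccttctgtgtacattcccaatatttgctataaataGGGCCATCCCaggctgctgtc

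The run GGAATTTCC began 78 bases before the start in CXCL1 and CXCL3, 77 in CXCL2, 90 in CXCL5 and 91 in CXCL8. It was searched on both strands in the 250 bases before each start, and 0.413% of 35116 RefSeq promoters hold it. Of the 10 ligands, 7 have a promoter in that table, and neither CCL20 nor CCL28 holds the run. The looser form is held by 22.6% of promoters. In CXCL1, CXCL2, CXCL3 and CXCL5 its matches overlap the capitals, and in CXCL8 it lies 117 bases before the start, apart from them. TGANTCA, the AP-1 site, was found in CXCL8 only, 137 bases before the start, and 6.57% of promoters hold it. GENCODE places the outermost start of CXCL2, CXCL3, CXCL5 and CXCL8 98, 118, 102 and 63 bases further upstream, so part of each of those stretches lies in the gene as GENCODE draws it. The outermost GENCODE start of CCL20 is 8103 bases upstream. A match to letters is a description and shows no binding.

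Of the 10 ligands, 8 reached 1 FPKM in at least 3 libraries and were tested. CXCL5, CXCL1, CCL20, CXCL16 and CCL28 rose with SRSF10 knockdown, 5 of 8 tested, against 12.6% of all 12191 tested genes (limma on log2(FPKM + 1), adjusted p under 0.05). In either direction 25.2% of all tested genes passed. None of the 8 fell, at an adjusted or an unadjusted p under 0.05, against 12.5% of all tested genes at the adjusted threshold. CXCL2, CXCL3 and CXCL8 did not pass. The 8 log2 fold changes were all positive with a median of 0.45, where the median of all tested genes was -0.01. For the 5 that rose, the 3 knockdown values all lay above the 3 control values, a pattern seen in 20.6% of all tested genes. No ligand had the reverse pattern, which 22% of all tested genes had. CXCL1 and CCL28 passed the filter through their 3 knockdown libraries, and their controls alone would not have passed it. Their entry among the 8 thus depends on the group where they are high. The ligands were also chosen with earlier results of these data known, so 5 of 8 is no independent test against the background. Control values of CXCL1 and CXCL3 lay mostly under 1 FPKM, and the pseudocount of 1 understates the changes of low genes. With a pseudocount of 0.1 the log2 fold change of CXCL1 was 1.43, that of CCL28 0.63 and that of CXCL3 0.47, against 0.91, 0.39 and 0.24 with a pseudocount of 1.

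**Figure D1:**
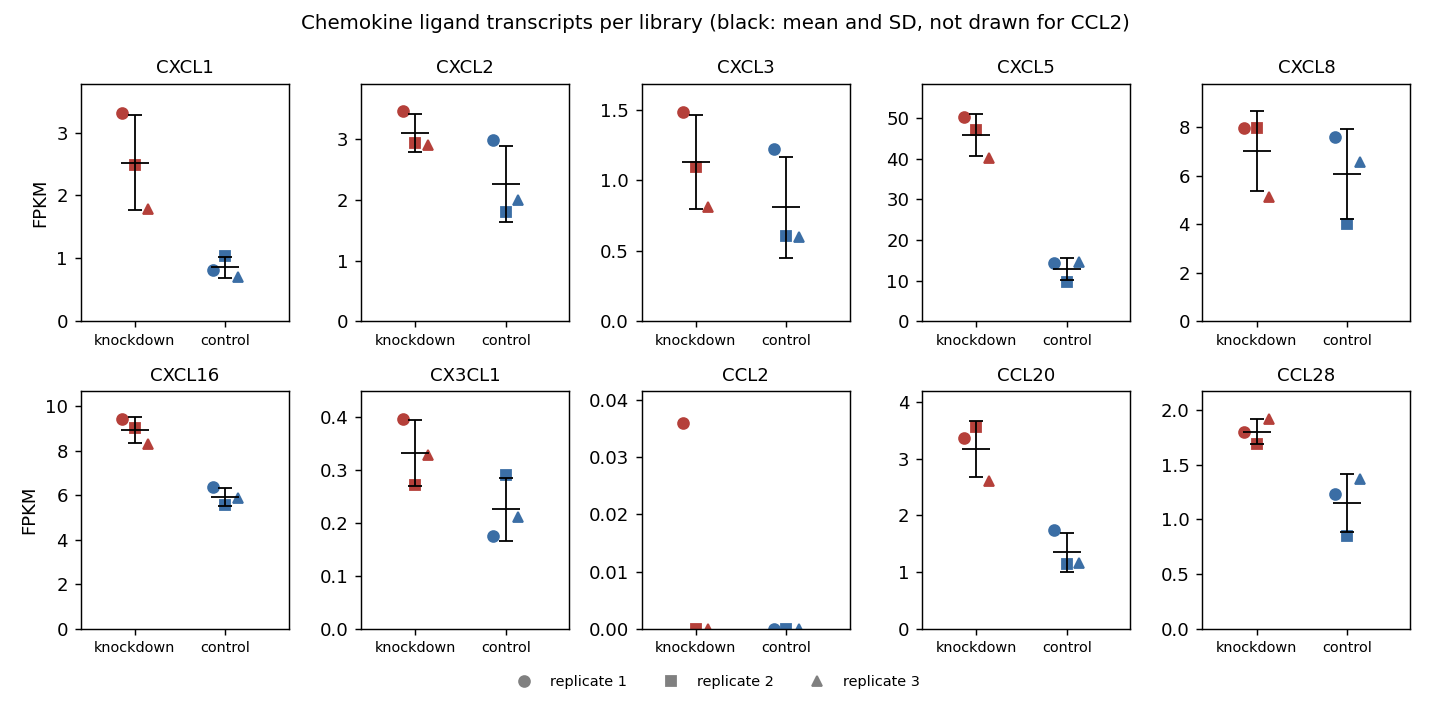
FPKM of each of the 10 chemokine ligands in the 3 SRSF10 knockdown libraries (red, left) and the 3 control libraries (blue, right), with the group mean and SD in black (not drawn for CCL2) and its own linear scale from 0 in every panel. CXCL5 sits at 40.1 to 50.4 FPKM in the knockdown and at 9.62 to 14.5 FPKM in the controls, while the groups of CXCL8 overlap.

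CXCL5, an attractant of neutrophils made by epithelial cells, was the most abundant of the 10 ligands in either group and changed most. CXCL5 (ENSG00000163735) lies on GRCh38 chromosome 4 at 73995642 to 73998779 on the minus strand. It was at 50.4, 47.2 and 40.1 FPKM in knockdown libraries, against 14.3, 9.62 and 14.5 FPKM in control libraries. The lowest knockdown library was well above the highest control. The means were 45.9 ± 5.3 FPKM in the knockdown and 12.8 ± 2.8 FPKM in the controls (SD, n = 3 each), a ratio of 3.58. On the log2 scale the change was 1.78 (SE 0.157, limma adjusted p = 0.000817), and it stayed between 1.60 and 1.87 when any library was left out. These levels rest on an estimated 1297 to 1792 fragments per knockdown library and 311 to 522 per control library. Counting alone would give a coefficient of variation of 2.52% and 4.75%, and 11.4% and 21.6% were seen in knockdown and control libraries.

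CXCL1, another ligand of CXCR2, rose at a much lower level. CXCL1 (ENSG00000163739, chromosome 4, 73869393 to 73871242, plus strand) was at 3.30, 2.48 and 1.78 FPKM in the knockdown, against 0.817, 1.04 and 0.705 FPKM in the controls. The groups did not overlap, and knockdown replicate 1 was far above knockdown replicate 3. Means were 2.52 ± 0.762 FPKM and 0.854 ± 0.17 FPKM in knockdown and control (SD, n = 3 each). Their ratio was 2.95, and on the log2 scale the change was 0.91 (SE 0.165, limma adjusted p = 0.00907). The estimate behind each value is only 29.4 to 60 fragments in knockdown libraries and 12.4 to 17.1 in control libraries.

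CXCL2 and CXCL3, close relatives of CXCL1 that also bind CXCR2, had higher means in the knockdown but did not pass. CXCL2 (ENSG00000081041, minus strand of chromosome 4, 74097035 to 74099293) was at 3.47, 2.94 and 2.91 FPKM in the knockdown, against 2.98, 1.80 and 2.01 FPKM in the controls. Control replicate 1 lay inside the knockdown range. The log2 fold change of CXCL2 was 0.35 (95% interval 0.02 to 0.68, limma adjusted p = 0.115), and without control replicate 1 it was 0.50 with an adjusted p of 0.0194. CXCL3 (ENSG00000163734, minus strand of chromosome 4, 74036589 to 74038807) was at 1.48, 1.09 and 0.811 FPKM in the knockdown, against 1.22, 0.603 and 0.599 FPKM in the controls. Its groups overlapped, again through control replicate 1. The log2 fold change of CXCL3 was 0.24 (95% interval -0.18 to 0.66, limma adjusted p = 0.37), and 0.12 to 0.40 with 1 library left out.

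Reads of these 3 genes can be hard to assign, because their transcripts are near copies in places. Of all runs of 50 bases in GENCODE transcripts, 4.81% of those of CXCL1, 12.5% of those of CXCL2 and 6.01% of those of CXCL3 also occur in another of the 3. CXCL8 shares none with any gene, and CXCL5 shares 1.12%, with GLYR1. How the authors counted reads with several matches is not given in the sources used here, so values of CXCL1, CXCL2 and CXCL3 are less certain than those of CXCL5 and CXCL8.

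CXCL8, interleukin 8, which binds CXCR1 and CXCR2, varied widely between libraries and did not pass. CXCL8 (ENSG00000169429, chromosome 4, 73740506 to 73743716, plus strand) was at 7.97, 7.97 and 5.10 FPKM in the knockdown, against 7.61, 4.0 and 6.56 FPKM in the controls. Knockdown replicate 3 fell within the control range, and control replicate 1 was close to the 2 highest libraries. Means were 7.02 ± 1.7 FPKM and 6.06 ± 1.9 FPKM in knockdown and control (SD, n = 3 each). A log2 fold change of 0.20 was fitted (95% interval -0.35 to 0.75, limma adjusted p = 0.585), and -0.032 without control replicate 2. Its coefficients of variation were 23.6% and 30.6% in knockdown and control libraries, where counting alone would give 6.8% and 7.28%.

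The mixture of neutrophil attractants was compared within libraries. The ratio of CXCL5 to CXCL8 FPKM was 6.32, 5.92 and 7.86 in the knockdown, against 1.88, 2.40 and 2.21 in the controls. The lowest knockdown ratio was above every control ratio, and the mean difference was 1.63 on the log2 scale. The ratio of CXCL1 to CXCL2 was 0.951, 0.843 and 0.612 in the knockdown, against 0.274, 0.577 and 0.351 in the controls, a mean log2 difference of 1.05. The exact two-sided permutation p of each ratio was 0.1, the smallest that 3 against 3 libraries can give, so this test could not pass its threshold. The ratios reuse the values of the genes above and add no independent evidence. CXCL5 alone made up 61.7% to 62.8% of the summed FPKM of the 10 ligands in knockdown libraries and 38.6% to 43.9% in control libraries. Without CXCL5 the sum was 23.8 to 31.3 FPKM in the knockdown and 15.3 to 22.2 FPKM in the controls, with no overlap.

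**Figure D2:**
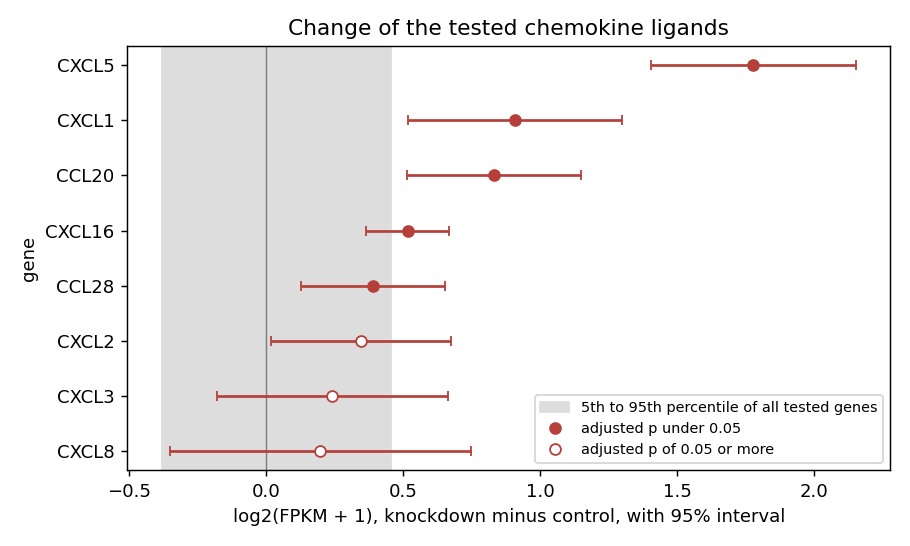
Difference in log2(FPKM + 1), knockdown minus control, of the 8 tested chemokine ligands with its 95% interval, filled where the adjusted p is under 0.05; the grey band spans the 5th to the 95th percentile of all 12191 tested genes. CXCL5, at 1.78, lies farthest from 0, and the intervals of CXCL3 and CXCL8 cross 0.

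CXCL16 and CX3CL1 are made as membrane proteins with a mucin-like stalk and are released by the proteases ADAM10 and ADAM17. CXCL16, the ligand of CXCR6 and a scavenger receptor, rose modestly and with little spread. CXCL16 (ENSG00000161921, minus strand of chromosome 17, 4733526 to 4739922) was at 9.43, 9.05 and 8.30 FPKM in the knockdown, against 6.37, 5.58 and 5.87 FPKM in the controls. The groups were well apart, and the ratio of the means was 1.5. On the log2 scale it rose by 0.52 (SE 0.0642, limma adjusted p = 0.00245), within 0.48 to 0.56 when any library was left out. Exons of CXCL16 overlap those of MED11, a Mediator subunit, in GENCODE. MED11 was at 2.69 ± 0.45 FPKM in the knockdown and 2.66 ± 0.24 FPKM in the controls (SD, n = 3 each; log2 fold change 0.00, limma adjusted p = 0.98).

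CX3CL1, fractalkine, was below the filter and not tested with the others. CX3CL1 (ENSG00000006210, chromosome 16, 57372458 to 57385048, plus strand) was at 0.395, 0.271 and 0.328 FPKM in the knockdown, against 0.175, 0.290 and 0.211 FPKM in the controls, an estimated 15 to 33.2 fragments per library. Control replicate 2 lay inside the knockdown range. With no filter its log2 fold change was 0.12 (95% interval -0.05 to 0.29, limma adjusted p = 0.449).

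Of the CC ligands among the 10, CCL20, which recruits CCR6-bearing lymphocytes and dendritic cells, rose most. CCL20 (ENSG00000115009, chromosome 2, 227805739 to 227817564, plus strand) was at 3.36, 3.55 and 2.60 FPKM in the knockdown, against 1.75, 1.13 and 1.16 FPKM in the controls. Every knockdown value was above every control value. Means were 3.17 ± 0.50 FPKM and 1.35 ± 0.35 FPKM in knockdown and control (SD, n = 3 each), a ratio of 2.36. This made a log2 fold change of 0.83 with an SE of 0.134 (limma adjusted p = 0.00582). Each value rests on an estimated 52.9 to 76.8 fragments in knockdown libraries and 23 to 39.9 in control libraries.

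CCL28, a mucosal ligand of CCR10 and CCR3, passed the test by a small margin. CCL28 (ENSG00000151882, minus strand of chromosome 5, 43376645 to 43412391) was at 1.80, 1.69 and 1.92 FPKM in the knockdown, against 1.23, 0.852 and 1.37 FPKM in the controls. The groups did not overlap, with control replicate 2 the lowest. On the log2 scale it rose by 0.39, SE 0.111 (limma adjusted p = 0.043). The adjusted p was above 0.05 without knockdown replicate 1 (0.107), 2 (0.0845) or 3 (0.123), without control replicate 1 (0.0804) or 2 (0.0775), with a pseudocount of 0.1 (0.0519) and with no filter (0.131). It ranged from 0.0349 to 0.131 over the alternatives.

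CCL2, the monocyte attractant of CCR2, was all but absent. CCL2 (ENSG00000108691, chromosome 17, 34255218 to 34257203, plus strand) was listed at 0.036 FPKM in knockdown replicate 1, an estimated 1 fragment, and at 0 in the other 5 libraries. At these depths a count of 0 allows up to 0.105 to 0.119 FPKM (3 fragments per library, for counting error only), so a lower level was not detectable.

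By mean FPKM the order of the 10 ligands in the knockdown was CXCL5, CXCL16, CXCL8, CCL20, CXCL2, CXCL1, CCL28, CXCL3, CX3CL1 and CCL2. The libraries of CCL20, CXCL2 and CXCL1 overlapped one another, as did those of CXCL1 and CCL28, and these neighbours cannot be ranked. In the controls CXCL5 was again first, ahead of CXCL8 and CXCL16, whose libraries overlapped, and then of CXCL2. CCL20, CCL28, CXCL1 and CXCL3 followed with overlapping values of 0.599 to 1.75 FPKM. CXCL5 led in both groups without overlap with any other of the 10.

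Within each group, most of the tested ligands were high or low in the same libraries. Knockdown replicate 1 had the highest knockdown value for 6 of the 8 tested ligands, and knockdown replicate 3 the lowest for 7 of 8. Control replicate 2 had the lowest control value for 6 of 8, and control replicate 1 the highest for 5 of 8. CCL28 went the other way in the knockdown, highest in replicate 3, and CXCL1 in the controls, highest in replicate 2. Whether other genes share this order was not tested. Knockdown replicate 3 and control replicate 2 were also the least deep libraries of their groups, at 12740000 and 12720000 estimated fragments. FPKM are divided by depth, and the part of depth in this order was not tested.

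**Figure D3:**
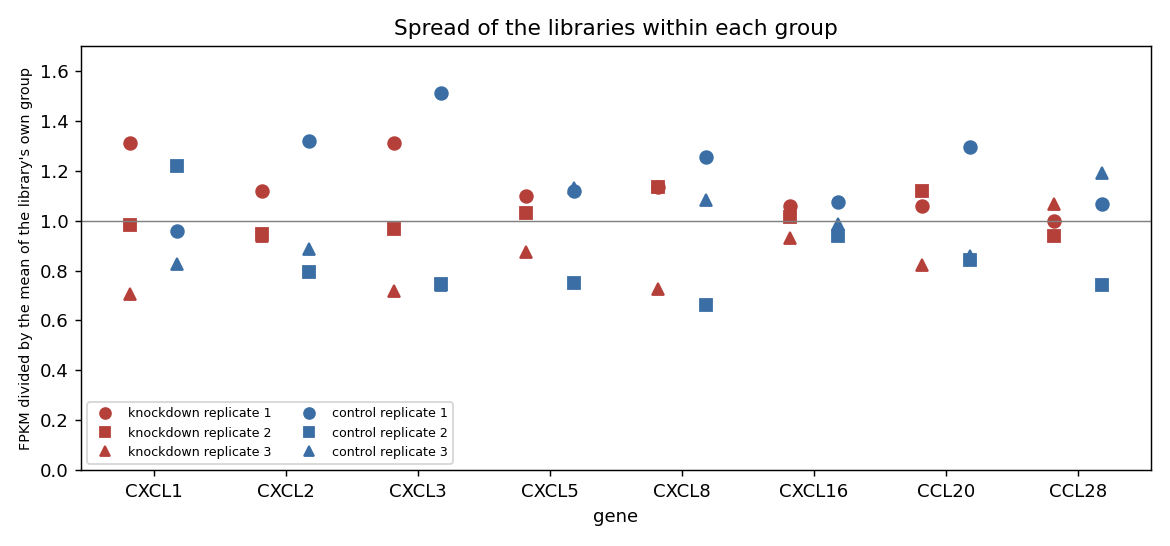
FPKM of the 8 tested chemokine ligands in each library, divided by the mean of the library's own group (1 is the group mean), for knockdown (red, left) and control (blue, right), with a symbol for each replicate number. Knockdown replicate 3 is lowest of its group for 7 of 8 ligands and control replicate 2 for 6 of 8.

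The 5 neutrophil-attracting ligands lie in a block of 358.8 kb on chromosome 4 (73740506 to 74099293), and the ones that rose lie in its middle. CXCL8 at one end and CXCL3 and CXCL2 at the other did not pass, and no test compared positions. Within the block CXCL6 was at 0.0384 to 0.072 FPKM in the knockdown and 0 to 0.0362 FPKM in the controls, and PPBP was listed at 0 in every library. PF4 was at 0.739, 0.475 and 0.608 FPKM in the knockdown, against 0.450, 0.305 and 0.286 FPKM in the controls. PF4V1 was at 0.0961, 0.0989 and 0.211 FPKM in the knockdown and at 0 in the controls. CXCL6, PF4 and PF4V1, all below the filter, thus had every knockdown value above every control value. Of all tested genes 20.6% had this pattern. Of 29 other genes whose start lies within 500 kb of the block, 4 were tested. Of these 2 rose and 0 fell, where 12.6% of all tested genes rose and 12.5% fell, and no test compared these shares. AREG, the growth factor amphiregulin, rose to 12.7 ± 1.7 FPKM in the knockdown, against 7.05 ± 1.4 FPKM in the controls (SD, n = 3 each; log2 fold change 0.78 ± 0.134 SE, limma adjusted p = 0.00756). RASSF6, a Ras association domain protein, was at 5.23 ± 0.30 FPKM in the knockdown and 4.18 ± 0.33 FPKM in the controls (a difference of 0.27 on the log2 scale, limma adjusted p = 0.0269). The growth factor EREG (log2 fold change 0.20, limma adjusted p = 0.129) and ANKRD17 (-0.05, adjusted p = 0.324) did not pass.

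**Figure D4:**
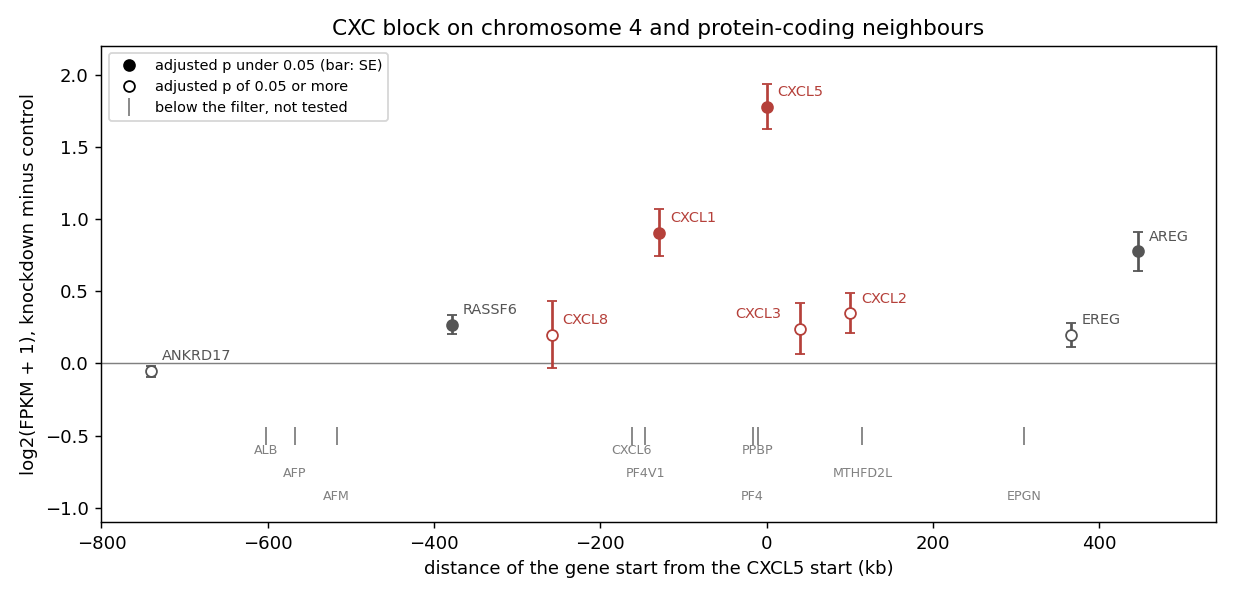
Difference in log2(FPKM + 1), knockdown minus control, with its SE, of protein-coding genes in and around the CXC block, against the distance of the gene start from that of CXCL5 in kb; red marks the chemokine ligands described, filled symbols an adjusted p under 0.05 and grey ticks genes below the filter. CXCL5 (1.78) and CXCL1 (0.91) stand above CXCL8, CXCL3 and CXCL2 (0.20 to 0.35), and AREG is at 0.78.

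Over the 6 libraries, the genes most like CXCL5 by Pearson correlation of log2(FPKM + 1) were the matrix protease MMP7 (r = 0.9998), the LIM domain protein PDLIM3 (0.9983) and the RNA-binding protein RBMS2 (0.9981). MMP7 was at 65.5, 63.7 and 58.1 FPKM in the knockdown, against 36.9, 31.3 and 37.5 FPKM in the controls. Its libraries keep the order of those of CXCL5. Such values are picked as the highest among 12191 genes, and the points share their libraries and a group difference.

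Few other chemokine genes were expressed. Of 36 further ligands, 34 were under 1 FPKM in every library and 24 were listed at 0 throughout. The 2 that were tested, the eotaxins CCL26 and CCL24, which bind CCR3, both rose, where 12.6% of all tested genes rose. CCL26 was at 16.4, 17.6 and 18.2 FPKM in the knockdown, against 10.2, 6.68 and 8.68 FPKM in the controls (log2 fold change 0.96 ± 0.13 SE, limma adjusted p = 0.00321). CCL24 was at 6.48, 4.52 and 5.46 FPKM in the knockdown, against 1.80, 2.04 and 3.23 FPKM in the controls (log2 fold change 0.96 ± 0.175 SE, limma adjusted p = 0.00907). In neither gene did the groups overlap, and 20.6% of all tested genes had every knockdown value above every control value. By its mean, CCL26 stood next to CXCL5 in either group, but its control libraries overlapped those of CXCL5 and CXCL8.

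Receptors for these ligands were scarce. Of 23 chemokine receptors, 21 were under 1 FPKM in every library. CXCR1, CCR6 and CX3CR1 were listed at 0, and CXCR2, the receptor of CXCL1 and CXCL5, at 0.0245 FPKM in control replicate 2 and at 0 elsewhere. ACKR3, an atypical receptor that scavenges CXCL12, was at 13.9, 18.8 and 19.5 FPKM in the knockdown, against 27.0, 35.2 and 21.5 FPKM in the controls. It fell by 0.64 on the log2 scale (SE 0.19, limma adjusted p = 0.0494), and the call was lost in 8 of 12 alternatives, among them the fits without knockdown replicate 1, 2 or 3, without control replicate 1 or 2, and with no filter. CCRL2, which binds chemerin, was at 1.36 ± 0.35 FPKM in the knockdown and 0.838 ± 0.20 FPKM in the controls and did not pass (limma adjusted p = 0.115). Of these 2 tested receptors 0 rose and 1 fell at the adjusted threshold in limma, against 12.6% and 12.5% of all tested genes. CCRL2 was higher at an unadjusted p under 0.05, as were 2214 of all 12191 tested genes. Its control values, 0.605, 0.947 and 0.963 FPKM, would not have passed the filter by themselves. Whether CCRL2 was tested thus depended on the group where it is high. CCR1, a receptor of several CC ligands, was below the filter at 0.783, 0.805 and 0.473 FPKM in the knockdown. Its controls were at 0.210, 0.238 and 0.223 FPKM, with no overlap. CCR3, also below the filter, went the other way, at 0 to 0.0618 FPKM in the knockdown and 0.0828 to 0.117 FPKM in the controls. Of the 23 receptors, CCR1 and CCRL2 had every knockdown value above every control value, and ACKR3 and CCR3 the reverse. Of all tested genes 20.6% and 22% had these patterns.

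Among proteases that release or trim chemokines, 3 of 8 tested rose and 1 fell, against 12.6% and 12.5% of all tested genes. Without control replicate 2 those that fell numbered 2. ADAM10, at 19.7 ± 0.45 FPKM in the knockdown and 20.4 ± 0.0655 FPKM in the controls, and ADAM17, at 3.58 ± 0.16 FPKM in the knockdown and 3.58 ± 0.37 FPKM in the controls, did not pass (SD, n = 3 each). The collagenase MMP1 rose to 5.64 ± 0.81 FPKM, against 1.82 ± 0.22 FPKM in the controls (limma adjusted p = 0.000685). RHBDF1, an inactive rhomboid that helps ADAM17 reach the surface, and MMP14 rose as well, with log2 fold changes of 0.41 and 0.38. MMP2 fell by 0.28 on the log2 scale (limma adjusted p = 0.0112).

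Of 20 tested regulators of chemokine transcription, 7 rose and 2 fell, with a median log2 fold change of 0.06. Of all tested genes 12.6% rose and 12.5% fell, so the share of regulators that fell was close to the background. The NF-kB subunits RELA and NFKB1 did not pass, at log2 fold changes of 0.00 and 0.05. The subunits RELB and NFKB2 rose by 0.70 and 0.26 on the log2 scale (limma adjusted p = 0.00434 and 0.0221). The feedback inhibitor TNFAIP3 rose by 0.92 (adjusted p = 0.000679), and BCL3 by 0.41 and IRF1 by 0.36. The AP-1 subunits FOS and JUN fell by 0.97 and 0.70, each below all controls in every knockdown library. Without knockdown replicate 3 the regulators that rose numbered 3, and with no filter 4.

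Of 7 regulators that act on the decay of chemokine mRNA, 1, ZFP36L1, rose and 1, ZFP36, fell. Of all tested genes 12.6% rose and 12.5% fell, so both counts were close to the background. ZFP36, tristetraprolin, binds AU-rich elements and speeds the decay of messages such as that of CXCL8. It was at 22.7, 25.5 and 25 FPKM in the knockdown, against 35.3, 35.1 and 33.1 FPKM in the controls, and fell by 0.48 on the log2 scale (limma adjusted p = 0.00149). ZFP36L1, of the same family, rose by 0.45 (adjusted p = 0.00784).

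Among 16 tested cytokines, receptors and adaptors that act upstream of these ligands, 5 rose and 3 fell, where 12.6% of all tested genes rose and 12.5% fell. IL1B was at 6.76, 6.15 and 6.09 FPKM in the knockdown, against 2.01, 1.20 and 2.18 FPKM in the controls (log2 fold change 1.41, with an SE of 0.138, limma adjusted p = 0.00106). IL1A and the receptor chain IL1RAP rose by 0.83 and 0.43 on the log2 scale, and TNFRSF1B by 0.82, while the receptor IL1R1 did not pass. MYD88, the adaptor of interleukin 1 receptors, fell by 0.46 (limma adjusted p = 0.00423). The kinase IRAK2, which acts with it, fell by 0.26 (limma adjusted p = 0.00689), and the lipopolysaccharide receptor TLR4 by 0.44 (limma adjusted p = 0.0152). Control values of IL1A, IL1RAP and TNFRSF1B were by themselves too low for the filter, as were the knockdown values of TLR4. Whether each of these genes was tested thus depended on the group where it is high. The counts of 5 and 3 of 16 are therefore no independent comparison with the background. TNF was listed at 0 in the 3 knockdown libraries and at 0.0829, 0.0937 and 0.044 FPKM in the controls.

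Markers of other cell types that can make chemokines were mostly under 1 FPKM, but several were higher in the knockdown. Of 11 leukocyte markers, 9 were under 1 FPKM in every library, and PTPRC, which defines leukocytes, reached at most 0.0172 FPKM. The leukocyte list summed to 2.41 to 3.49 FPKM in the knockdown and 1.42 to 2.48 FPKM in the controls, most of it ITGAM and NKG7. In 2 of its 11 genes, ITGAM and CD14, every knockdown value was above every control value. Of all tested genes 20.6% had this pattern, so 2 of 11 is near that share, and of the 11 only ITGAM was tested. The control values of ITGAM, 1.20, 0.885 and 1.19 FPKM, would not have passed the filter by themselves. Whether ITGAM was tested thus depended on the group where it is high.

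The fibroblast list summed to 9.55 to 10.5 FPKM in the knockdown and 4.12 to 5.21 FPKM in the controls, most of it LUM, which had 8.75 to 10 FPKM in the knockdown and 4.03 to 5.11 FPKM in the controls. In the knockdown LUM was thus above most of the ligands in mean FPKM. Of the 6 fibroblast genes, 4 lay above all controls in every knockdown library: LUM and, each under 1 FPKM, COL1A1, COL3A1 and DCN. Of all tested genes 20.6% had this pattern, and of the 6 only LUM was tested. COL3A1 was at 0.356, 0.442 and 0.345 FPKM in the knockdown, against 0.0408, 0.0577 and 0.0867 FPKM in the controls. COL1A2 and PDGFRB were at 0.0220 FPKM or less.

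The endothelial list summed to 6.38 to 7.39 FPKM in the knockdown and 4.68 to 5.85 FPKM in the controls, nearly all PECAM1, with 6.20 to 7.23 FPKM in the knockdown and 4.58 to 5.74 FPKM in the controls. CDH5, which defines endothelium, was at 0.047 FPKM or less, and 2 of the 4 endothelial genes, PECAM1 and CDH5, had every knockdown value above every control value. Of all tested genes 20.6% had this pattern, and of the 4 only PECAM1 was tested. Some markers, among them LUM, ITGAM and PECAM1, thus moved with the ligands that rose. Others, among them PTPRC, NKG7, PDGFRB, VWF and TEK, overlapped between the groups. The part of such cells in the result was not tested.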

How the data were processed

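Per the labels' protocols, total RNA was taken up in TRIzol, treated with DNase and made into libraries with a Vazyme VAHTS V6 kit for Illumina sequencing. FastQC 0.11.9, Trim Galore 0.6.5-1 and GRCh38 are named in the submitters' processing notes. An aligner, a counting program, a strand setting and an annotation were not given in the sources used here. As deposited by the authors, the data are FPKM values for 60623 genes in 1 table and in 6 sample files with identical values. FPKM are no counts, so no count model was run.

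Genes with at least 1 FPKM in at least 3 of the 6 libraries were tested (12191) with limma 3.58.1 in R 4.3.3 on log2(FPKM + 1), group as the only term, a trend on mean expression and p-values adjusted by Benjamini-Hochberg across those genes (threshold 0.05). The pseudocount understates changes of low genes. The steps were tested on simulated data. The ligands and lists were chosen with earlier results of these data known. Named genes are the 10 ligands, SRSF10, up to 4 members per list with the smallest adjusted p and any in the other direction, other ligands and receptors with a mean of at least 1 FPKM, neighbours within 500 kb, and the 3 genes most like the ligand of the largest change. Other genes that are named, such as those at or near 0 or those that did not pass, were chosen after their values were seen.

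Depth was estimated in Python 3.11.15 as the total at which low FPKM, times GENCODE 29 exon length, gave whole fragments. Of values up to 6.5 fragments, 87.3% to 87.9% came within 0.05 of a whole number. Positions are from GENCODE 29, promoters from RefSeq (GRCh38.p14).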

Additional observations from a re-analysis of the deposited data

How the results depend on the processing

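With a filter of 5 FPKM, 2 ligands rose (CXCL5 and CXCL16), because only 3 were then tested. Leaving out each library in turn gave 4 to 5 ligands that rose and 0 that fell. Over all tested genes it gave 986 to 1344 that rose and 975 to 1335 that fell, against 1542 and 1525 with all 6 libraries. The count that fell was 997 without knockdown replicate 2 and 975 without knockdown replicate 3, and the count that rose was 986 without knockdown replicate 3. With no filter 1013 of 32280 genes fell. The log2 fold change of CXCL8, 0.20 with all libraries, lay between -0.032 and 0.38 when a library was left out, and was -0.032 without control replicate 2 (limma adjusted p = 0.924). CXCL2 passed without control replicate 1. CCL28 lost its call in 8 of 11 alternatives. CXCL1, CXCL5, CXCL16 and CCL20 kept direction and call wherever they were tested, including median-of-ratios scaling and limma without the trend. The cause of these shifts was not tested.

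Same-numbered replicates did not deviate together (r = 0.0156, 0.057 and -0.0715). Deviations from the means of groups of 3 libraries cannot exclude that the numbers pair the libraries, and no label says whether they do. With a replicate block 4 ligands rose and 0 fell, CCL28 was at an adjusted p of 0.0509 and CXCL2 at 0.054, and 1193 genes rose and 1146 fell.

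Depth limits CXCL1, CXCL3, CX3CL1 and CCL2, which rest on at most 60 estimated fragments in any library. CXCL2 and CCL20 were little better, at 34.4 to 73 and 23 to 76.8 estimated fragments. With 3 libraries per group, no exact permutation p can fall below 0.1.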

Other observations

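GGAATTTCC was looked for in the promoters of other genes after the values of the ligands were seen. It lies upstream of 137 genes by symbol, of which 42 were tested. Of these 8 rose and 3 fell, with a median log2 fold change of 0.05. Without the 5 ligands whose values prompted the search, 6 of 37 rose and 3 fell, with a median of 0.04, where 1542 of all 12191 tested genes rose and 1525 fell. Beside CXCL1 and CXCL5, those that rose were the adhesion molecule ICAM1, the autophagy receptor OPTN, the splicing regulator MBNL2, MSRB3, RAP2C and SEC24A.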
